A study of Mus musculus with 6 samples.

Results

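The 8 genes described here make or adjust the deoxynucleotides that a cell needs to copy its DNA: *Rrm1*, *Rrm2*, *Rrm2b*, *Tyms*, *Dut*, *Tk1*, *Dck* and *Samhd1*. They were taken by symbol from a deposited table of 14546 genes measured by PRO-seq in muscle stem cells (MuSCs) of the mouse. All 8 were listed and all 8 were among the 12451 genes that passed the filter on low values. PRO-seq maps transcribing RNA polymerases: engaged polymerases add biotin-labelled nucleotides to the RNA they are making, and the labelled RNA is isolated and sequenced. Libraries of 3 Ctrl samples (genotype Pax7CreERT/Suv4-20h1WT) and 3 Kmt5bsKO samples (genotype Pax7CreERT/Suv4-20h1KO) were compared. *Suv4-20h1* is another name of *Kmt5b*, which encodes a methyltransferase for lysine 20 of histone H4, and the comparison asks how its loss changes nascent transcription. Both groups carry a tamoxifen-inducible Cre recombinase expressed from the *Pax7* locus, so that recombination after tamoxifen given to adult mice is limited to *Pax7*-positive cells. The cells were purified from muscle and were measured as proliferating cultures. The labels do not say whether replicates came from separate animals, so that the p-values below measure the spread between these libraries.

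Ribonucleotide reductase turns ribonucleotides into deoxyribonucleotides and is the main source of DNA precursors in dividing cells. Its large subunit, RRM1, works with either of a pair of small subunits: RRM2, which is made in S phase and degraded later in the cell cycle, or RRM2B, which is induced by p53 after DNA damage and supplies cells that do not divide. Thymidylate synthase (*Tyms*) makes dTMP from dUMP, dUTPase (*Dut*) provides this dUMP and keeps uracil out of DNA, thymidine kinase 1 (*Tk1*) and deoxycytidine kinase (*Dck*) salvage nucleosides, and SAMHD1 works in the opposite direction and hydrolyses deoxynucleotides.

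For each gene 2 levels were deposited. The TSS region is the first 400 nt of the listed transcript and is given as RPM, reads scaled to a fixed total per library. The gene body is the rest of the transcript, introns included, and is given as TPM, which is also divided by length. As 1 read adds a fixed amount to a value, read numbers could be worked out from the deposited values. A library held 926904 to 3246052 reads in the listed TSS regions and 7425424 to 16249448 in the gene bodies. Behind the 8 genes lay 26 to 1600 TSS reads and 162 to 2211 gene body reads. Each level is a share of the reads that a library held in regions of the same kind. A change of total transcription thus does not appear in them, and neither does a shift between TSS regions and gene bodies common to all genes. The targeted gene gave no check of the genotype: *Kmt5b* held 30.6 to 38.5 TPM over its gene body in the Ctrl and 35.0 to 42.6 TPM in the Kmt5bsKO libraries (log2 fold change 0.14, adjusted p = 0.71 from limma). All 9 markers of satellite cells and myoblasts were listed, with a summed gene body level of 1980 to 2652 TPM in Ctrl and 2506 to 3252 TPM in Kmt5bsKO MuSCs. The sum hides that single markers differed in direction. Of the 9, 5 had a log2 fold change above 0 and 4 below 0 (median 0.04), and 0 had an adjusted p under 0.1 from limma.

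*Rrm2* had the highest gene body level of the 8 genes in both groups, 282 ± 11.9 TPM in Ctrl and 182 ± 7.59 TPM in Kmt5bsKO MuSCs (SD, n = 3), which placed it between percentiles 97.7 and 99.1 of the tested genes. *Tk1* followed in both groups without overlap with *Rrm2*. In Ctrl MuSCs *Tk1*, *Rrm1*, *Dut* and *Tyms*, with means from 81.0 down to 37.7 TPM, each overlapped the next in this order. *Dck* (18.5 ± 2.01 TPM) and *Samhd1* (10.3 ± 2.67 TPM) came next, without overlap with each other. *Rrm2b* had the lowest mean in both groups, 7.97 ± 1.92 TPM and 8.14 ± 1.019 TPM, and its range overlapped that of *Samhd1*. In the TSS region the order of *Rrm2b* differed: its mean was the third highest in both groups, after *Rrm2* and *Rrm1*. Some of these levels are uncertain because the authors retained 1 random position for a read that matched several. Sequence at least 95% identical to 37.8% of the *Rrm2* transcript, 90.2% of the *Rrm2b* transcript, 83.0% of the *Tk1* transcript and 19.3% of the *Tyms* transcript lies elsewhere in GRCm38. Exons make up 34.7% of the gene body of *Rrm2*, 11.7% of that of *Rrm2b*, 10.4% of that of *Tk1* and 20.2% of that of *Tyms*. *Rrm1*, *Dut*, *Dck* and *Samhd1* had no such match in their exons, which make up 13.2%, 7.95%, 15.2% and 4.94% of their gene bodies. Introns were not searched for any of the 8 genes.

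**Figure D1:**
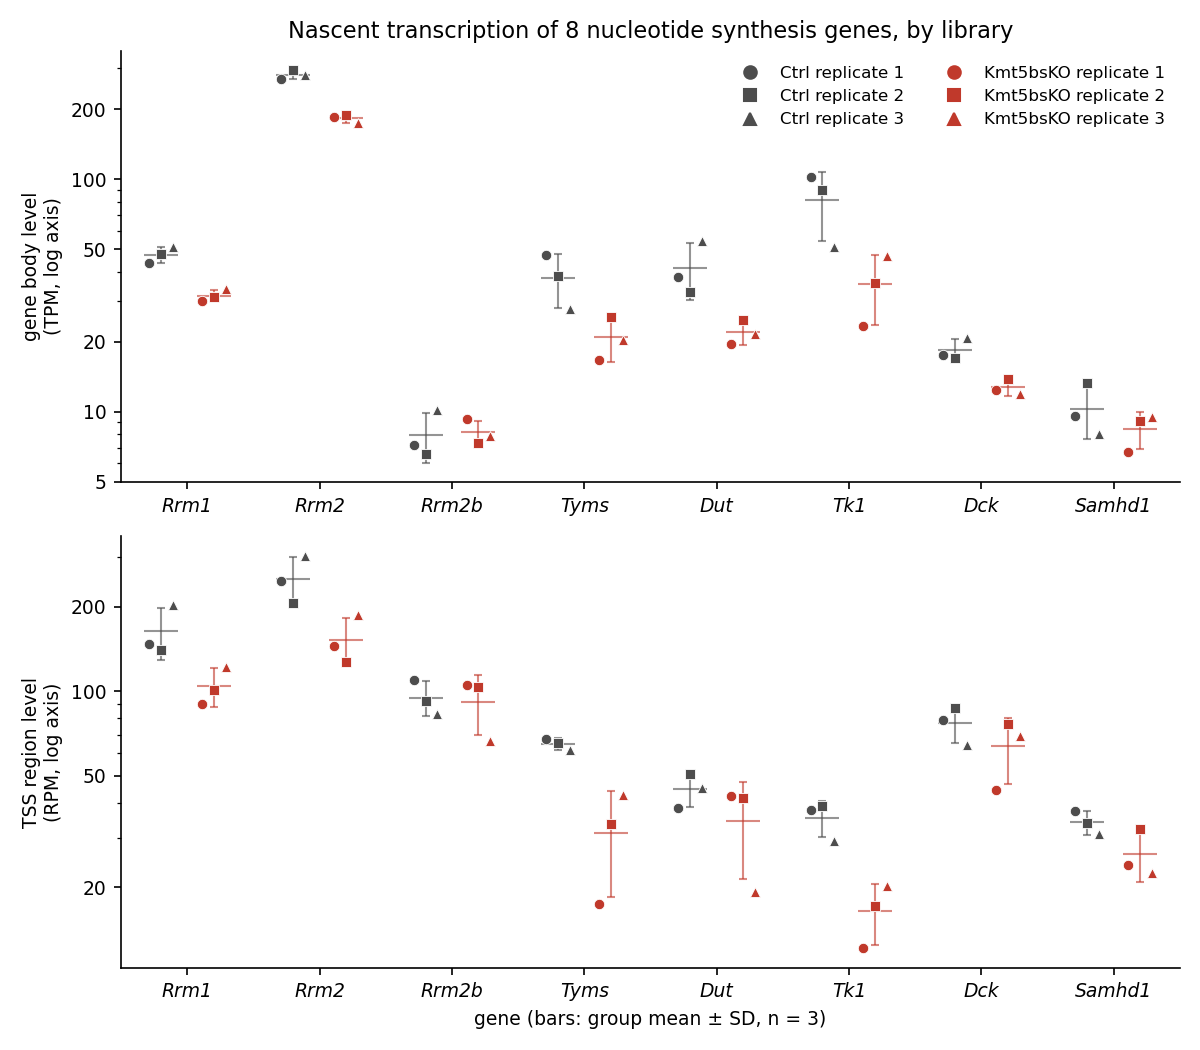
Levels of the 8 genes in each library, as TPM in the gene body (top) and RPM in the TSS region (bottom), both on log axes. Grey symbols are Ctrl and red symbols Kmt5bsKO libraries, symbol shapes are replicates, and bars give the mean ± SD of 3 libraries. In the gene body the 3 Kmt5bsKO libraries lie below the 3 Ctrl libraries for all genes but Rrm2b and Samhd1.

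*Rrm1*, *Rrm2* and *Tyms* are the genes called lower below for which no other gene overlaps the start, and the 150 bases before their starts are shown. The sequences are those of RefSeq for GRCm38.p6, which held a promoter window (250 bases before to 50 after the start) for 7 of the 8 genes, not for *Rrm2b*. They lie at chr7:102441545-102441694 on the plus strand (*Rrm1*), chr12:24708091-24708240 on the plus strand (*Rrm2*) and chr5:30073626-30073775 on the minus strand (*Tyms*). Capitals mark CCAAT boxes (CCAAT) and GC boxes (GGGCGG), and neither element stands in all of these sequences.
Rrm1: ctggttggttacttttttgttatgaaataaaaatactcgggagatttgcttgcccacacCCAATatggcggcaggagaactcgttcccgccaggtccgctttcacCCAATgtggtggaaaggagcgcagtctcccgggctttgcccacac
Rrm2: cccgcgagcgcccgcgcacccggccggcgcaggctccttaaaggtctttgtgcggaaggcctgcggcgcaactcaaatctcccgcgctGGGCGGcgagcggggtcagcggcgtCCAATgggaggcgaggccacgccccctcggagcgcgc
Tyms: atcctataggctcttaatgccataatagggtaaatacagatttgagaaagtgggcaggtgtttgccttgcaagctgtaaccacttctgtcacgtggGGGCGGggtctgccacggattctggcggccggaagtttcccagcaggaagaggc

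Both subunit genes of the S phase enzyme held a CCAAT box on the coding strand, *Rrm1* at 91 and 45 bases before the start (positions -91 and -45) and *Rrm2* at position -50 from the RefSeq start. None of the other 5 windows held one on either strand. A CCAAT box thus stood in 2 of 7 windows, a share not above the 37.4% of the 32851 promoters of the same length. The share was also 37.4% among the promoters of the tested genes. A GC box stood in 6 of the 7 windows, all but that of *Rrm1*, against 35.7% of all promoters and 62.5% of those of the tested genes. The CHR element (TTTGAA) stood in 1 window, that of *Dck* (17.9% of all promoters). An E2F site, searched as TTTCCCGC, TTTCGCGC, TTTGCCGC or TTTGGCGC on both strands, stood in 0 of 7 windows (2.26% of all promoters and 3.84% of those of the tested genes). Only these forms were searched, and E2F sites of shorter or other forms were not counted. A TATA box (TATAAA) stood in 0 of 7 windows (13.6% of all promoters) and a p53 element in 0 of 7 (0.073%). These are matches of letters in a short window and do not show binding or its absence. Windows were placed by the RefSeq starts, which lay downstream of the listed starts by 325 nt for *Dut*, 126 nt for *Samhd1* and 78 nt for *Tk1*. The whole window of *Dut* thus lies within its measured TSS region and not before its listed start.

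Gene body transcription of both subunits of the S phase reductase was lower by a factor of 1.49 for *Rrm1* and 1.54 for *Rrm2* in Kmt5bsKO MuSCs, while that of *Rrm2b* did not pass the test in either direction. The *Rrm1* gene body (ENSMUSG00000030978, chr7:102441695-102469771 on the plus strand of GRCm38, 19 exons) gave 43.6, 47.5 and 51.1 TPM in the Ctrl libraries, here and below in the order of the replicate numbers, and 30.03, 31.2 and 33.6 TPM in the Kmt5bsKO libraries. The *Rrm2* gene body (ENSMUSG00000020649, chr12:24708241-24714146 on the plus strand, 10 exons) held 270.0, 294 and 281 TPM in the Ctrl and 184, 189 and 174 TPM in the Kmt5bsKO libraries. For both genes every Kmt5bsKO library lay below every Ctrl library, and the difference was larger than the spread within either group. *Rrm1* fell by 0.58 on the log2 scale (95% interval -0.86 to -0.29, adjusted p = 0.084 from limma) and *Rrm2* fell by 0.63 (95% interval -0.93 to -0.32, adjusted p = 0.080 from limma), where genes were called at an adjusted p under 0.1. The *Rrm2b* gene body (ENSMUSG00000022292, chr15:37923952-37961103 on the minus strand, 9 exons) held 7.2, 6.55 and 10.2 TPM in the Ctrl and 9.28, 7.31 and 7.84 TPM in the Kmt5bsKO libraries. The Kmt5bsKO values lay within the Ctrl range, and the log2 fold change of 0.05 had a 95% interval from -0.42 to 0.51 (adjusted p = 0.95 from limma). The body of *Rrm2b* holds a processed pseudogene on its own strand (*Gm3362*, 466 nt).

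In the thymidylate branch, the *Tk1* gene body had the largest log2 fold change of the 8 genes, but also the widest spread, and did not pass the threshold. *Tk1* (ENSMUSG00000025574, chr11:117815526-117826092 on the minus strand, 7 exons) gave 103, 89.4 and 50.9 TPM in the Ctrl libraries and 23.5, 35.9 and 46.8 TPM in the Kmt5bsKO libraries. *Tyms* (ENSMUSG00000025747, chr5:30058827-30073617 on the minus strand, 7 exons) held 47.2, 38.3 and 27.6 TPM in the Ctrl and 16.6, 25.7 and 20.3 TPM in the Kmt5bsKO libraries. *Dut* (ENSMUSG00000027203, chr2:125247190-125257748 on the plus strand, 7 exons) held 37.9, 32.6 and 54.5 TPM in the Ctrl and 19.5, 24.8 and 21.6 TPM in the Kmt5bsKO libraries. The groups did not overlap for any of these 3 genes, but Ctrl replicate 3 had the lowest Ctrl value of *Tk1* and *Tyms*, close to the highest Kmt5bsKO value, and the highest Ctrl value of *Dut*. The log2 fold changes were -1.18 for *Tk1* (95% interval -1.94 to -0.41, adjusted p = 0.14 from limma), -0.83 for *Tyms* (95% interval -1.38 to -0.28, adjusted p = 0.15) and -0.88 for *Dut* (95% interval -1.36 to -0.40, adjusted p = 0.103, just above the threshold). *Tk1* is overlapped on the opposite strand by *Gm20708* over its whole length and by *Afmid* over 169 nt at its start, and the authors counted the sense strand.

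The salvage kinase *Dck* (ENSMUSG00000029366, chr5:88764996-88783281 on the plus strand, 7 exons) held 17.6, 17.0 and 20.8 TPM in the Ctrl and 12.4, 13.8 and 12.0 TPM in the Kmt5bsKO libraries. All 3 Kmt5bsKO values lay below the Ctrl values, with a log2 fold change of -0.52 (95% interval -0.85 to -0.19) that did not pass the threshold (adjusted p = 0.14 from limma). *Samhd1* (ENSMUSG00000027639, chr2:157101360-157135222 on the minus strand, 16 exons), the hydrolase, held 9.62, 13.3 and 8.05 TPM in the Ctrl and 6.72, 9.08 and 9.52 TPM in the Kmt5bsKO libraries. These groups overlapped, and the log2 fold change of -0.26 had an interval that included 0 (95% interval -0.78 to 0.26, adjusted p = 0.65 from limma).

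Counted over the 8 genes, 2 were called lower and 0 higher in the gene body, against 1.38% of all tested genes called lower and 1.61% called higher. The Kmt5bsKO libraries lay below the Ctrl libraries without overlap for 6 of 8 genes, against 9.34% of all tested genes. The median log2 fold change of the 8 genes was -0.60, that of all tested genes 0.023, and 4.74% of all tested genes had a log2 fold change at or below -0.60. In bulk cultures, fewer cells in S phase and less transcription per cell cannot be told apart. The calls were sensitive to single libraries: when Ctrl replicate 1 or any 1 of the 3 Kmt5bsKO replicates was left out, limma called none of the 8 genes and none of all 12451 genes, 1 (*Dut*) was called without Ctrl replicate 2, and 5 (*Rrm1*, *Rrm2*, *Tyms*, *Tk1* and *Dut*) were called without Ctrl replicate 3. In each of these 6 fits, 6 of the 8 genes had an unadjusted p under 0.05 and were lower, as they did in the fit to all libraries, against 6.46% of all tested genes. Over all tested genes, limma called 261 (66 lower) without Ctrl replicate 2 and 836 (506 lower) without Ctrl replicate 3. With all libraries it called 372 (172 lower).

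**Figure D2:**
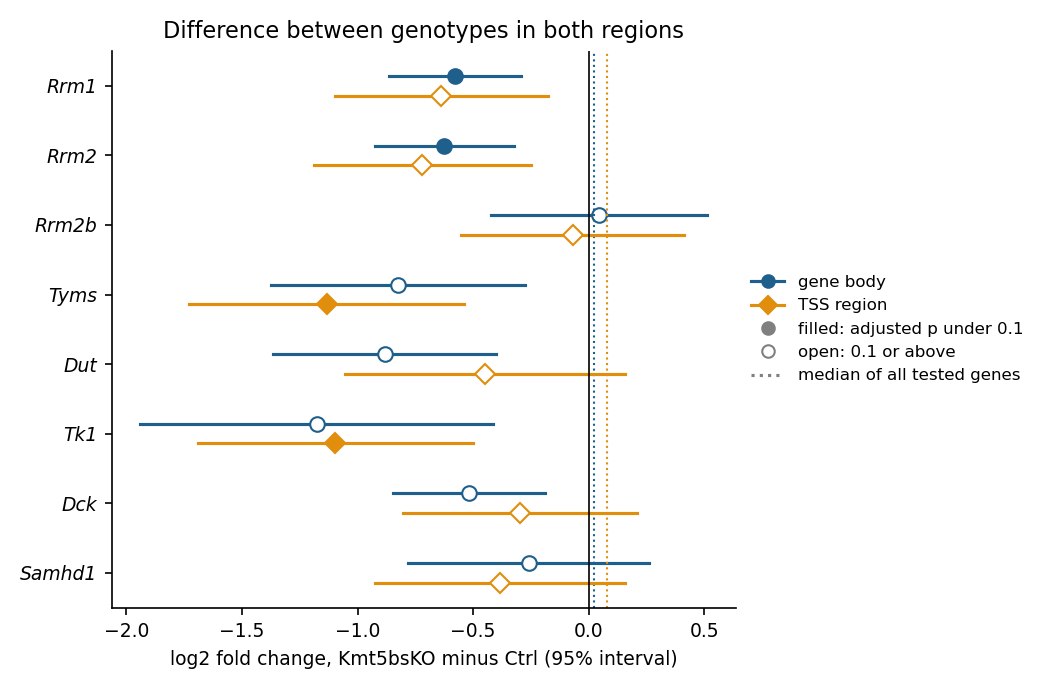
Log2 fold change of each gene between Kmt5bsKO and Ctrl MuSCs with its 95% interval, for the gene body (blue circles) and the TSS region (orange diamonds). Filled symbols passed an adjusted p under 0.1, and dotted lines mark the medians of all tested genes (0.023 and 0.081); the intervals of Rrm2b and Samhd1 include 0 in both regions.

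At the TSS region, all 8 log2 fold changes were below 0, as were 41.8% of those of all tested genes, and *Tyms* and *Tk1* passed the threshold. The *Tyms* TSS region, of which 257 nt belong to exon 1, gave 67.8, 65.5 and 61.6 RPM in the Ctrl libraries and 17.4, 33.7 and 42.8 RPM in the Kmt5bsKO libraries. The *Tk1* TSS region held 37.8, 39.1 and 29.4 RPM in the Ctrl and 12.1, 17.2 and 20.2 RPM in the Kmt5bsKO libraries. Both groups were separate for both genes. The level of *Tyms* fell by 1.13 on the log2 scale (95% interval -1.73 to -0.54, adjusted p = 0.072 from limma) and that of *Tk1* fell by 1.10 (95% interval -1.69 to -0.50, adjusted p = 0.080 from limma). Only 26 to 44 reads lay behind the *Tk1* value in each Kmt5bsKO library.

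Both subunits of the S phase reductase were also lower at the TSS without overlap, although neither was called there. *Rrm1* held 147, 140.2 and 203 RPM in the Ctrl and 89.8, 101 and 122 RPM in the Kmt5bsKO libraries (log2 fold change -0.64, 95% interval -1.10 to -0.18, adjusted p = 0.21 from limma). *Rrm2* held 246, 206 and 303 RPM in the Ctrl and 145, 127 and 186 RPM in the Kmt5bsKO libraries (log2 fold change -0.72, 95% interval -1.19 to -0.25, adjusted p = 0.15 from limma). *Rrm2b* held 109, 92.5 and 82.8 RPM in the Ctrl and 106, 104 and 66.2 RPM in the Kmt5bsKO libraries (log2 fold change -0.07, 95% interval -0.55 to 0.41, adjusted p = 0.96 from limma). The *Rrm2b* groups overlapped, and an antisense transcript (*Gm49085*) overlaps the gene over 633 nt at its start.

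The TSS levels of the remaining 3 genes overlapped between the groups. *Dut* held 38.5, 50.6 and 45.1 RPM in the Ctrl and 42.3, 41.6 and 19.3 RPM in the Kmt5bsKO libraries, of which replicate 3 alone was below all Ctrl libraries. *Dck* held 78.9, 87.3 and 64.2 RPM in the Ctrl and 44.6, 76.6 and 69.5 RPM in the Kmt5bsKO libraries, and *Samhd1* held 37.5, 33.9 and 30.9 RPM and 23.9, 32.4 and 22.5 RPM. Their log2 fold changes were -0.45, -0.30 and -0.38, with adjusted p between 0.65 and 0.75 from limma. With 1 library left out, that of *Dut* ran from -0.64 to -0.082 (without Kmt5bsKO replicate 3), that of *Dck* from -0.45 to -0.063 (without Kmt5bsKO replicate 1) and that of *Samhd1* from -0.54 to -0.28, and none of the 3 genes was called. In the TSS region, 2 of the 8 genes were thus called lower, against 0.731% of all tested genes, and 4 of 8 were lower without overlap, against 5.33%. The median log2 fold change was -0.54, and over all tested genes it was 0.081. By limma none of the 8 genes was called without Ctrl replicate 1, Kmt5bsKO replicate 1 or Kmt5bsKO replicate 2 (3 or 4 were lower at an unadjusted p under 0.05, as were 4 in the fit to all libraries, against 3.65% of all tested genes), *Tyms* alone was called without Kmt5bsKO replicate 3, and *Rrm2* and *Tyms* were called without Ctrl replicate 2. Over all tested genes, the first 3 of these fits called 1, 16 and 132. Without Kmt5bsKO replicate 3 the count was 46, without Ctrl replicate 2 it was 408, and with all libraries 207.

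The ratio of *Rrm2* to *Rrm2b* sets the S phase subunit against the stress-induced one within a library. In the gene body the Ctrl libraries gave ratios of 37.5, 44.9 and 27.7 and the Kmt5bsKO libraries ratios of 19.9, 25.8 and 22.2. All 3 Kmt5bsKO ratios lay below the Ctrl ratios, although Ctrl replicate 3 and Kmt5bsKO replicate 2 were close. The means were 36.7 ± 8.61 and 22.6 ± 3.01 (SD, n = 3), and the difference between the log2 levels of *Rrm2b* and *Rrm2* was 0.67 higher in Kmt5bsKO MuSCs (two-sided exact permutation test, p = 0.1, and no smaller p is possible with 3 libraries against 3). In the TSS region the ratio was 2.25, 2.23 and 3.66 in the Ctrl and 1.37, 1.23 and 2.81 in the Kmt5bsKO libraries. Here the groups overlapped, as the third replicate had the highest ratio of its group in both, and the log2 difference of 0.65 was not distinguishable from the spread (two-sided exact permutation test, p = 0.3). It was 0.42 without Ctrl replicate 3, 0.43 without Kmt5bsKO replicate 2 and 1.02 without Kmt5bsKO replicate 3. The gene body ratio of *Rrm2* to *Rrm1*, both of the S phase enzyme, was 6.19, 6.18 and 5.50 in the Ctrl and 6.14, 6.06 and 5.19 in the Kmt5bsKO libraries, and these ranges overlapped.

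**Figure D3:**
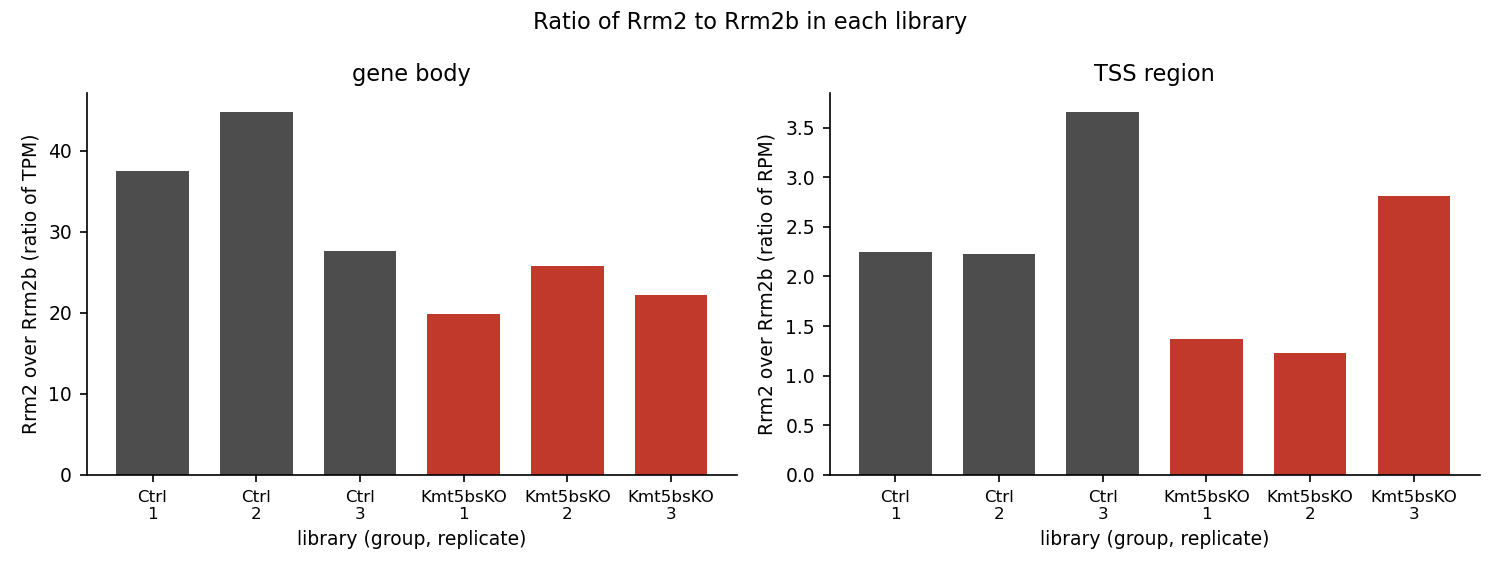
Ratio of Rrm2 to Rrm2b in each library, as a ratio of TPM in the gene body (left) and of RPM in the TSS region (right). Grey bars are Ctrl and red bars Kmt5bsKO libraries; the gene body ratios are 27.7 to 44.9 in Ctrl and 19.9 to 25.8 in Kmt5bsKO, while the TSS ratios overlap.

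Over the 6 libraries, the gene body levels most like that of *Rrm2* by Pearson's correlation of log2 values were those of *Nabp2* (r = 0.996), *Stag1* (r = 0.992) and *Zcchc11* (r = 0.991). *Rrm1* followed at rank 103 (r = 0.951) among 345 genes with r over 0.9, and the correlation of *Rrm2b* with *Rrm2* was -0.14. The levels most like that of *Rrm2b* were those of *2210418O10Rik* (r = 0.988), *Noa1* (r = 0.978) and *Serpinc1* (r = 0.976). These correlations describe 6 points that share libraries and depth, and those of *Rrm2* also contain the difference between the genotypes.

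The pausing index, which divides the level of the TSS region by that of the gene body, was compared to see whether polymerases were distributed differently along the genes. Both levels were scaled separately and differ in unit, so that an index of 1 does not mean equal density in both regions. A shift between the regions that is common to all genes does not appear in the index. The index separated the genes from each other more than the genotypes. *Rrm2b* had indices of 15.2, 14.1 and 8.16 in the Ctrl and 11.4, 14.2 and 8.45 in the Kmt5bsKO libraries, between percentiles 97.0 and 99.4 of all genes with an index. *Rrm2* had indices of 0.912, 0.702 and 1.08 in the Ctrl and 0.784, 0.675 and 1.07 in the Kmt5bsKO libraries. In all 6 libraries the index of *Rrm2b* was thus far above that of the other small subunit. *Tk1* had the lowest indices, 0.368, 0.437 and 0.577 in the Ctrl and 0.517, 0.478 and 0.432 in the Kmt5bsKO libraries, between percentiles 9.27 and 17.3. Indices lay between 2.95 and 3.98 for *Rrm1*, between 3.09 and 5.81 for *Dck*, between 2.37 and 3.90 for *Samhd1*, between 1.04 and 2.23 for *Tyms* and between 0.827 and 2.17 for *Dut*.

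The groups overlapped for all 8 genes, while they were separate for 9.02% of the genes with an index, and none of the 8 was called (0% of the 11698 genes with an index, of which 3.86% had an unadjusted p under 0.05, and none of the 8 genes did). The log2 fold changes of the index lay between -0.31 (*Tyms*) and 0.44 (*Dut*), each with a 95% interval that included 0. For *Rrm2* the interval was -0.78 to 0.59 and for *Rrm2b* -0.87 to 0.63, so that changes of the index of this size were not detectable with 3 libraries a group. As the index compares both regions of a gene, it also tests whether the calls of *Rrm1* and *Rrm2* in the gene body and of *Tyms* and *Tk1* in the TSS region differ between the regions, which was not shown for any of these 4 genes (adjusted p = 1.0 for each from limma).

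**Figure D4:**
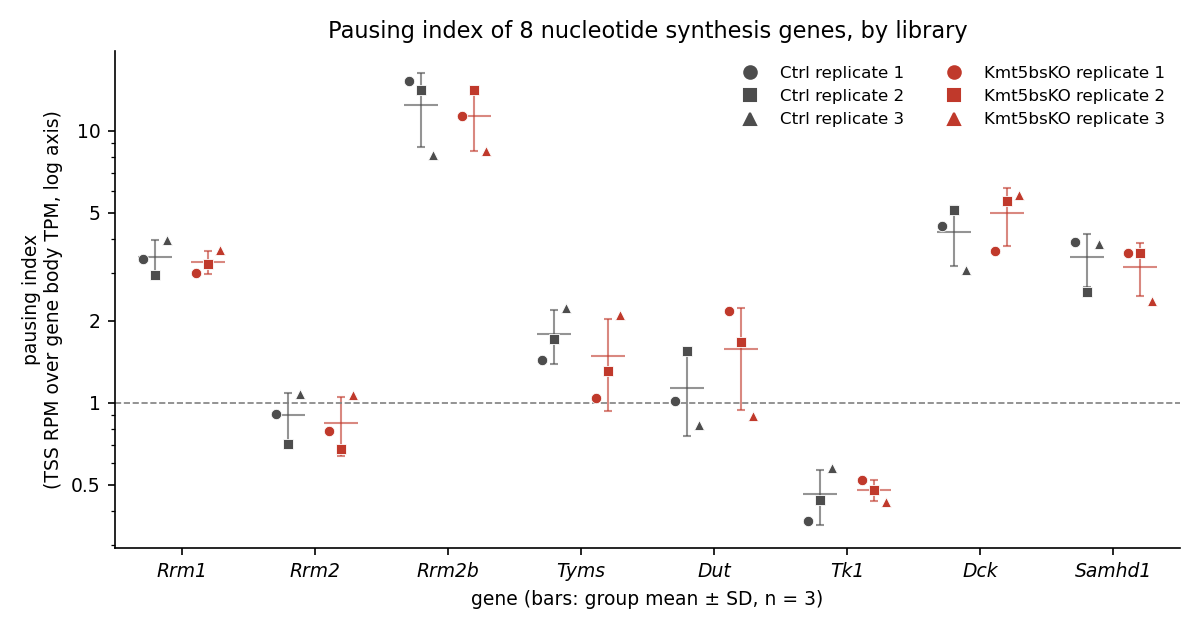
Pausing index of the 8 genes in each library (TSS RPM over gene body TPM, log axis), with the mean ± SD of 3 libraries as bars and a dashed line at 1. As the levels differ in unit, the line does not mark equal density in both regions. Grey symbols are Ctrl and red symbols Kmt5bsKO libraries; they overlap for every gene, Rrm2b lies between 8.16 and 15.2, and Tk1 lies below 1 in all 6 libraries.

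The other genes of nucleotide metabolism were counted by role. The 9 genes of the thymidylate and folate cycle had a median log2 fold change of -0.49 in the gene body. In the TSS region their median was -0.11, and 0 of the 9 were called or lay lower without overlap. Of 11 genes of purine synthesis, 2 were called lower and 1 higher in the gene body, with a median of -0.16. *Paics* and *Pfas*, which encode enzymes of the purine ring assembly, fell by 0.79 and 0.55 on the log2 scale (adjusted p = 0.084 and 0.098 from limma). *Adssl1*, the muscle isozyme of adenylosuccinate synthase, rose by 0.89 in the gene body and by 1.09 in the TSS region (adjusted p = 0.066 and 0.040 from limma).

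None of the 4 tested genes of pyrimidine synthesis was called (median -0.28), from *Umps* at -0.57 to *Ctps* at -0.07, and neither of the 2 tested genes of PRPP synthesis was (*Prpsap1* -0.06 and *Prpsap2* 0.01). Of 15 genes of salvage and nucleotide kinases, 0 were called lower and 1 was called higher, with a median of 0.01. It was *Ak1*, the adenylate kinase abundant in muscle, with 24.0, 27.2 and 17.2 TPM in the Ctrl and 56.6, 40.9 and 70.6 TPM in the Kmt5bsKO libraries (log2 fold change 1.27, adjusted p = 0.075 from limma). Of 14 genes of breakdown and pool cleaning, none was called in either region (median -0.11 in the gene body), from *Ada* at -0.50 to *Nt5e* at 0.45. Among the pathway lists, the gene body medians closest to that of the 8 genes were thus those of the folate cycle and of pyrimidine synthesis. The shares called in the gene body can be read against 1.38% lower and 1.61% higher over all tested genes.

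**Figure D5:**
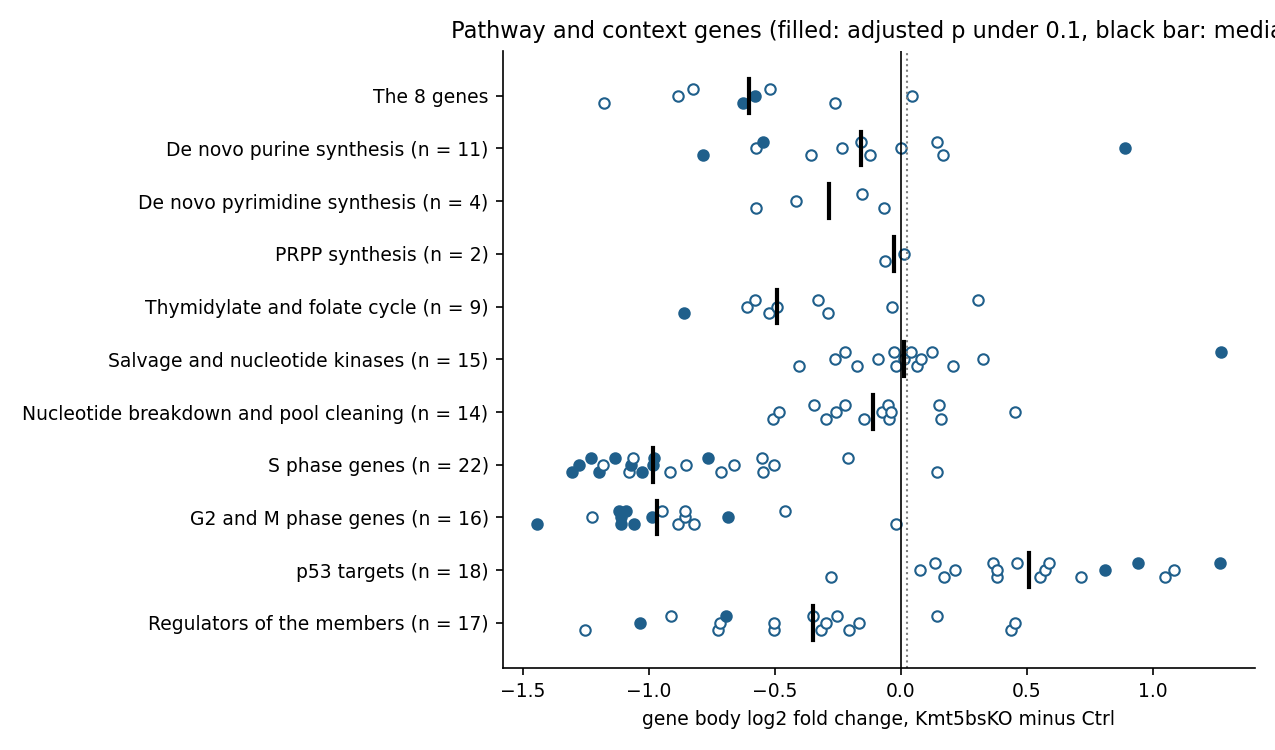
Gene body log2 fold changes of the 8 genes, of 6 lists of other nucleotide metabolism genes and of 4 context lists, with 1 circle a gene. Filled circles passed an adjusted p under 0.1, black bars are medians and the dotted line is the median of all tested genes; the 8 genes have a median of -0.60, the S phase genes -0.98, the G2 and M phase genes -0.97 and the p53 targets 0.51.

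Genes of the cell cycle were counted in the same way, without a test of either list as a whole. Of 22 other S phase genes, 10 were called lower in the gene body and 0 higher, with a median log2 fold change of -0.98. They encode subunits of the replicative helicase (*Mcm3*, *Mcm5*, *Mcm6* and *Gins1*) and its loader (*Cdc6*), the polymerase clamp (*Pcna*), primase and a replicative polymerase (*Prim1* and *Pole*) and cyclins (*Ccne2* and *Ccna2*), with *Pcna* at 94.0, 75.9 and 89.3 TPM in the Ctrl and 25.2, 44.4 and 43.3 TPM in the Kmt5bsKO libraries. *Mcm7*, *Ccne1* and *Rpa2* were called lower in the TSS region but not in the gene body, and 7 of the 22 genes were called in the TSS region in all. Of 16 genes of G2 and M phase 8 were called lower and 0 higher in the gene body (*Cdk1*, *Bub1*, *Top2a*, *Cenpe*, *Cenpf*, *Kif11*, *Kif20a* and *Nusap1*), with a median of -0.97, and 2 (*Top2a* and *Kif11*) were called lower in the TSS region. Both medians lay below that of the 8 genes.

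Of 18 tested targets of p53, the factor that induces *Rrm2b*, 3 were called higher and 0 lower in the gene body, with a median of 0.51. *Mdm2*, the ubiquitin ligase that limits p53, held 96.8, 114 and 140.3 TPM in the Ctrl and 221, 239 and 210.0 TPM in the Kmt5bsKO libraries (log2 fold change 0.94, adjusted p = 0.068 from limma). *Ccng1* rose by 0.81 and *Trp53inp1* by 1.27 (adjusted p = 0.080 and 0.075 from limma). The value of *Rrm2b* stood below the median of this list, and its interval from -0.42 to 0.51 reached that median at its upper end. Of 17 known regulators of these genes, 2 were called lower and 0 higher in the gene body and 3 lower and 0 higher in the TSS region. *Rbl1*, a pocket protein that binds E2F factors, fell by 0.69 (adjusted p = 0.095 from limma), and *Fbxo5*, an inhibitor of the APC/C ubiquitin ligase, fell by 1.04 in the gene body and by 1.18 in the TSS region (adjusted p = 0.066 and 0.040 from limma). The TSS level of *E2f3*, an activating E2F, fell by 1.10 and that of *E2f7*, an E2F that represses transcription, fell by 1.29 (adjusted p = 0.081 and 0.045 from limma).

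Markers of myotubes and fibres had values in the direction opposite to the cell cycle genes, without passing the test. Of 10 such markers 7 were tested and all 7 had a log2 fold change above 0 in both regions, with medians of 0.86 in the gene body and 0.998 in the TSS region, and none was called. Their summed gene body level was 1248 to 2816 TPM in the Ctrl and 2915 to 4068 TPM in the Kmt5bsKO libraries. *Myh2*, *Myh4* and *Pvalb*, of mature fibres, did not pass the filter. The part of differentiated cells in the values of the 8 genes was not tested. Markers of fibro-adipogenic cells summed to at most 8.62 TPM in any library and those of endothelial cells to at most 4.05 TPM, with *Dcn*, *Lum*, *Kdr* and *Tie1* not among the listed genes. Those of smooth muscle and pericytes summed to 22.8 to 41.0 TPM in the Ctrl and 44.7 to 53.02 TPM in the Kmt5bsKO libraries, and those of Schwann cells to 8.75 to 9.90 and 14.8 to 23.0 TPM, where *Sox10* was called higher (log2 fold change 1.56, adjusted p = 0.075 from limma). *Cspg4* alone of the smooth muscle and pericyte markers passed the filter. It held 21.4 to 39.6 TPM in the Ctrl and 41.3 to 51.1 TPM in the Kmt5bsKO libraries, most of the sum. *Rgs5* and *Myh11* held at most 2.71 and 0.87 TPM, and *Kcnj8* was not among the listed genes. Of the immune markers only *Cd68* passed the filter (log2 fold change 0.09), and the listed immune markers summed to 218 to 423 TPM in the Ctrl and 331 to 339.8 TPM in the Kmt5bsKO libraries, while *Ptprc*, the marker common to blood cells, was not among the listed genes.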

How the data were processed

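Per the labels, reads were processed with Trimmomatic 0.39, STAR 2.6.1d and Picard 2.18.16 on GRCm38. The authors counted sense-strand reads in both regions and deposited RPM for the TSS region, under a header that names TPM, and TPM for the gene body. After removal of chromosomes X and Y and of genes averaging under 0.5 in either region, 12451 genes were tested as log2(value + 0.5) with limma 3.58.1 (R 4.3.3; lmFit, eBayes with a trend, genotype as the only term) and called at an adjusted p (Benjamini-Hochberg) under 0.1. On this scale the change of genes with low values is understated. The pausing index was tested without a pseudocount. Whole reads were recovered for 100% of the TSS values and of the gene body values of genes with a body under 2000 nt (tolerance 0.02 reads), and edgeR 4.0.16 and DESeq2 1.42.0 were run on them as alternatives. Similar sequence elsewhere in the genome was searched with blastn 2.17.0 (matches of at least 100 nt). Named were the 8 genes, the called genes of each list, the extremes of lists with fewer than 2 calls, the 3 genes most like *Rrm2* or *Rrm2b*, and *Kmt5b*. The genes and lists were chosen with earlier results of these data known, and no list was tested as a set. For 3 genes of these lists no values are reported here. A planned comparison of the protein sequences was not made. Python 3.11.15 was used for the tables.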

Additional observations from a re-analysis of the deposited data

How the results depend on the processing

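The replicate numbers were shared between the groups but did not pair the libraries: same-numbered libraries deviated from their group means with correlations of -0.15, -0.17 and -0.33 in the gene body and -0.034, -0.13 and -0.16 in the TSS region. With the replicate number as a block, 0 of the 8 genes were called in either region (6 and 4 had an unadjusted p under 0.05), and none of the 12451 genes was. The number of the 8 genes called in the gene body, 2 as reported, was 1 by eBayes without a trend, 0 at an adjusted p under 0.05, 5 by edgeR and 6 by DESeq2, and 0 to 5 with 1 library left out. In the TSS region the number, also 2, was 3 by DESeq2, 2 by edgeR and 0 to 2 with 1 library left out. It was 0 without the filter on low values, at an adjusted p under 0.05 and by eBayes without a trend. Without the filter (14068 genes) and by eBayes without a trend (12451 genes), no TSS level of any gene was called. These counts of 0 are thus not particular to the 8 genes. An adjusted p under 0.05 from limma was reached by 64 of all tested genes there and by 1 in the gene body. By eBayes without a trend, 415 of all tested genes were called in the gene body. Over all tested genes, edgeR called 748 and DESeq2 1296 in the gene body, where limma called 372, and 279 and 295 in the TSS region, where limma called 207. The gene body and TSS medians of the 8 genes kept their direction in all alternatives, while the median of their pausing index values (-0.075) turned to 0.037 without Ctrl replicate 3 and to 0.0022 and 0.078 without Kmt5bsKO replicates 2 and 3. The gene body value of *Rrm2b* turned to -0.0035 by edgeR and -0.0116 by DESeq2 and ran from -0.074 to 0.22 with 1 library left out. Its TSS value ran from -0.18 to 0.15. Pausing index values changed sign with 1 library left out for *Rrm2b* (-0.40 to 0.076), *Tk1* (-0.081 to 0.24), *Rrm1* (-0.16 to 0.057), *Rrm2* (-0.28 to 0.052) and *Samhd1* (-0.32 to 0.080). The causes were not tested.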
